A study of Mus musculus with 16 samples.

Results

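The genes described here are 6 adhesion, matrix and membrane genes of the mouse chromosome 16 segment that Dp16 mice carry in an additional copy: Jam2, Cxadr, Adamts1, Adamts5, Cyyr1 and Eva1c. They were taken by symbol from a count table of 55385 genes, 384 of which lie between Lipi and Zbtb21, and all 6 passed the low-count filter. RNA came from the brain cortex of 16 mice aged 9 months, none with a treatment. Each of the 4 groups, wild-type C57BL/6J, Dp16 alone, 5xFAD alone and the cross 5xFAD-Dp16, held 2 females and 2 males. Dp16 mice carry a duplication of the distal part of chromosome 16 and model trisomy 21. 5xFAD mice carry human transgenes with familial Alzheimer's disease mutations under the neuronal Thy1 promoter and form amyloid plaques, and 5xFAD-Dp16 mice carry both. The sources used here give neither the strain background of the 3 mutant groups nor whether the mice were littermates.

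Jam2 and Cxadr encode immunoglobulin-superfamily proteins of cell junctions. JAM-B, the product of Jam2, binds JAM-C on neighbouring cells and is known as a signal that keeps myelin off neuronal cell bodies, and Cxadr encodes the coxsackievirus and adenovirus receptor, a component of tight junctions. Adamts1 and Adamts5 encode secreted metalloproteases that cut the large chondroitin sulfate proteoglycans, among them aggrecan, versican and brevican, from which the matrix around neurons and vessels is built. Tissue inhibitors hold these proteases in check and endocytic receptors clear them. Eva1c encodes a membrane receptor for Slit guidance proteins, and Cyyr1 a small cysteine- and tyrosine-rich membrane protein whose function is little known. Adamts1 is also known as a gene that vessels and activated cells induce quickly.

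The 16 libraries held 16874481 to 22912168 counts. Levels are given as CPM, the counts of a gene relative to the library total after TMM scaling, and changes as log2 fold changes with their standard error from edgeR's quasi-likelihood test with sex as a covariate. Genes with a Benjamini-Hochberg adjusted p under 0.05, over the 17555 tested, count as called. Wild-type replicate 3 stood apart from the other libraries: the slope of its expression on gene length was −0.439, followed by −0.181 in Dp16 replicate 4 and −0.171 in Dp16 replicate 3. At the other end, wild-type replicate 1 had the highest slope, 0.281, so the wild-type group held both extremes. Summed neuronal markers (10 genes) ran from 9292 to 12594 CPM and astrocyte markers (10 genes) from 5137 to 10698 CPM. No marker gene of these lists was at 0 throughout. In bulk tissue, fewer cells of a type and less RNA per cell cannot be told apart. The labels name separate samples and nothing further, so the p-values measure the spread between these samples.

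Per kilobase of gene, Jam2 stood far above the other 5 genes. The deposited RPKM, reads relative to gene length and library total, had a median over the 16 libraries of 15.5 for Jam2, 1.99 for Cxadr, 1.77 for Adamts1, 1.60 for Eva1c, 0.668 for Cyyr1 and 0.226 for Adamts5. That put Jam2 above 76.9% of the genes tested and Adamts5 above 7.01% of them. The ranges of Cxadr, Adamts1 and Eva1c overlapped: Cxadr exceeded Adamts1 in 11 of 16 libraries and Eva1c in 14, and Adamts1 exceeded Eva1c in 10. Cyyr1 lay below each of these in all 16 libraries and above Adamts5 in 15. Adamts5 was also the gene with the fewest reads for its length, 22 to 81 counts per library over 10791 bp, whereas Jam2 had 990 to 2325 counts over 6043 bp. The lengths behind the deposited RPKM fell short of the GENCODE M21 exons for some genes. They were 2372 against 3806 bp for Eva1c and 6273 against 8894 bp for Cyyr1, so these levels depend on the length used.

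**Figure D1:**
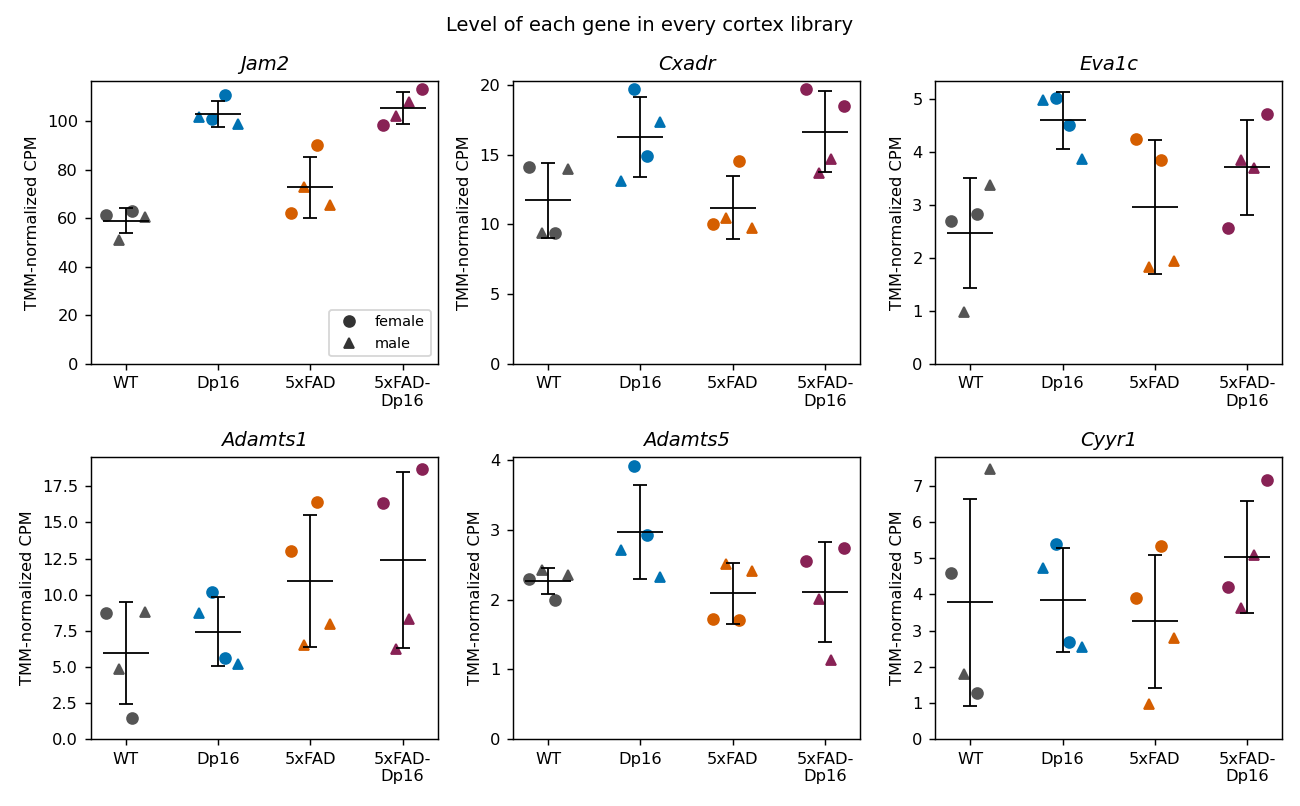
Level of each gene in every library, in TMM-normalized CPM on axes that start at 0, with circles for females, triangles for males, and black bars for the mean and SD of 4 libraries. All 8 Jam2 values with the duplication, 98.3 to 113 CPM, sit above all 8 without it, 51.2 to 90.2, while the groups overlap for Cxadr, Adamts1, Adamts5 and Cyyr1 in both Dp16 comparisons.

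Jam2 (ENSMUSG00000053062.16, GRCm38, chromosome 16, 84774123 to 84825928, plus strand) was higher with the duplication than without it. It stood at 61.2, 51.2, 62.9 and 60.5 CPM in wild-type replicates 1 to 4 and at 102, 101, 111 and 98.9 CPM in Dp16. In 5xFAD it stood at 62.2, 72.8, 90.2 and 65.4 CPM, and in 5xFAD-Dp16 at 98.3, 102, 108 and 113 CPM. The lowest library with the duplication lay above the highest without it, and within the libraries without it the 4 5xFAD values lay above the wild-type mean. Averaged over mice with and without the transgenes, 8 libraries against 8, the log2 fold change was 0.67 ± 0.09, or 1.60-fold with a 95% confidence interval of 1.39 to 1.83 (edgeR adjusted p = 0.0107). In that comparison 12 of the 103 other tested genes of the segment were called, and 0.0968% of all genes. Jam2 was the only gene of the 6 called there, and 0.125% of all genes had 8 values above the other 8. The call was lost without 5xFAD-Dp16 replicate 3, where the edgeR adjusted p was 0.0528 and the log2 fold change changed little; over all alternatives the log2 fold change ran from 0.64 to 0.73 and the adjusted p from 2.44e-10 to 0.0528.

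Taken apart, the Jam2 difference was 0.81 ± 0.13 between Dp16 and wild-type (n = 4 each, edgeR adjusted p = 0.158) and 0.54 ± 0.13 between 5xFAD-Dp16 and 5xFAD (n = 4 each, edgeR adjusted p = 0.725). Neither passed the threshold in the edgeR test, in which 0.00570% of genes did in each of these comparisons, although the groups did not overlap in either, as for 0.980% and 1.73% of genes in this direction. DESeq2 called both, with adjusted p = 1.57e-06 and 0.0170, and so did the edgeR fit with the length slope as a covariate (adjusted p = 0.000235 and 0.00566). Those fits also called more of all genes, 17 and 27 with DESeq2 and 44 and 122 with the slope, against 1 and 1. The interaction, the difference between these 2 effects, was −0.27 with a 95% confidence interval of −0.66 to 0.13, an interval that holds 0.

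Cxadr (ENSMUSG00000022865.14, chromosome 16, 78301489 to 78359774, plus strand) shares 695 exonic bp with Btg3 on the opposite strand. The sources used here do not say if reads were counted by strand, so part of its 156 to 440 counts could be reads of Btg3, which had 228 to 977. Cxadr stood at 14.1, 9.41, 9.42 and 14.002 CPM in wild-type and at 13.1, 19.8, 14.9 and 17.4 CPM in Dp16. In 5xFAD it stood at 10.003, 10.5, 14.6 and 9.75 CPM, and in 5xFAD-Dp16 at 19.7, 13.7, 14.7 and 18.5 CPM. All 8 libraries with the duplication lay above the mean of the 8 without it, but the 3 highest without it, from wild-type and 5xFAD, reached into their range. The averaged log2 fold change was 0.52 ± 0.14 (95% confidence interval 0.23 to 0.81, unadjusted p = 0.00166 in edgeR's test, adjusted p = 0.464), with 0.47 ± 0.19 without the transgenes and 0.57 ± 0.19 with them. The averaged difference passed the threshold with the length slope as a covariate (0.54 ± 0.11, edgeR adjusted p = 0.0161) and missed it with DESeq2 (adjusted p = 0.0643). Btg3, an antiproliferative gene, had an averaged log2 fold change of 0.54 ± 0.24.

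Among 41 tested partners of JAM and tight or adherens junctions, none was called in any comparison of the duplication. Their median log2 fold change was −0.04 in the averaged comparison, against −0.02 over all genes tested, and 16 of the 41 lay above 0. Of the 41, Igsf5 lies in the segment itself and had 0.04 ± 0.75 in that comparison. Cldn5, Cdh5, Pecam1 and Esam are also among the endothelial markers used here. The smallest p-values there belonged to Cldn1, a claudin (1.21 ± 0.47), and Marveld3, a tight-junction membrane protein (1.01 ± 0.41), both with an edgeR adjusted p of 1.00. Markers of choroid plexus and ependyma, epithelial cells of the ventricles, had a median of 1.07 there with 8 of 10 above 0, and their sum ran from 36.6 to 2293 CPM between libraries; its part in these values was not tested. With the 5xFAD transgenes, F11r was called in the averaged comparison, and it was the only one of the 41 (2.18% of all genes were called). F11r encodes JAM-A, a relative of JAM-B, and averaged 10.6 ± 0.927 CPM in wild-type and 11.8 ± 2.33 CPM in Dp16 mice (SD, n = 4), against 19.8 ± 1.76 CPM in 5xFAD and 17.3 ± 6.57 CPM in 5xFAD-Dp16 mice. Its averaged 5xFAD log2 fold change was 0.70 ± 0.15 (edgeR adjusted p = 0.0195), whereas that of Jam2 was 0.17 ± 0.09 (edgeR adjusted p = 0.674) and that of Cxadr −0.03 ± 0.14. The F11r call was lost without wild-type replicate 1, Dp16 replicate 2, Dp16 replicate 3 or 5xFAD replicate 2, with edgeR adjusted p-values up to 0.0562 and log2 fold changes of 0.60 to 0.79 over all libraries left out in turn. The sum of 10 microglial markers moved with F11r, from 694 to 934 CPM in the libraries without the transgenes to 1108 to 2993 CPM in those with them, and its part in the F11r difference was not tested.

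Adamts1 (ENSMUSG00000022893.14, chromosome 16, 85793827 to 85803113, minus strand) varied widely within groups, with a median coefficient of variation of 45.2%, against 7.62% for Jam2. It stood at 8.76, 4.86, 1.45 and 8.83 CPM in wild-type and at 8.75, 10.2, 5.66 and 5.24 CPM in Dp16. In 5xFAD it stood at 13.004, 6.56, 16.4 and 7.95 CPM, and in 5xFAD-Dp16 at 16.4, 6.22, 8.33 and 18.7 CPM. Wild-type replicate 3 was the lowest of all 16 libraries, and the 4 highest were all from mice with the transgenes. The averaged effect of the duplication was 0.21 ± 0.32 on the log2 scale (95% confidence interval −0.46 to 0.88), an interval that covers both 0 and the 0.58 of a 3 to 2 copy ratio. Between Dp16 and wild-type the log2 fold change was 0.27 ± 0.45, and it turned to −0.11 without wild-type replicate 3.

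Averaged over both Dp16 states, the 5xFAD effect on Adamts1 was 0.70 ± 0.32 on the log2 scale, or 1.62-fold (95% confidence interval 1.01 to 2.61, unadjusted p = 0.0469 in edgeR's test, adjusted p = 0.579). In that comparison 8.48% of all genes had an unadjusted p under 0.05, and 6 of the 8 libraries with the transgenes lay above the mean of those without. It did not pass the threshold, and the log2 fold change was 0.75 ± 0.46 without the duplication (0.35 without wild-type replicate 3 and 1.16 without wild-type replicate 4) and 0.64 ± 0.45 with it. When the slope on gene length entered the fit, the averaged effect was 0.66 ± 0.17 (edgeR adjusted p = 0.0165) and with no low-count filter the adjusted p was 0.0139. Without the 3 libraries of lowest slope it was 0.31 ± 0.19 (edgeR adjusted p = 0.500).

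The window before the start of Adamts1 is shown beside that of Cyyr1, its neighbour at 240430 bp, because these 2 genes varied together across libraries, as described further on. Both run 5′ to 3′ on the minus strand of chromosome 16 and are the 250 bases before the RefSeq gene start (GRCm38.p6), chr16:85803114-85803363 for Adamts1 and chr16:85550374-85550623 for Cyyr1. The Adamts1 window ends at the start of the GENCODE gene, whereas the Cyyr1 window lies inside the longer GENCODE span of that gene given further on, whose start is farther upstream. Capitals mark the matches to the motifs searched.
Adamts1: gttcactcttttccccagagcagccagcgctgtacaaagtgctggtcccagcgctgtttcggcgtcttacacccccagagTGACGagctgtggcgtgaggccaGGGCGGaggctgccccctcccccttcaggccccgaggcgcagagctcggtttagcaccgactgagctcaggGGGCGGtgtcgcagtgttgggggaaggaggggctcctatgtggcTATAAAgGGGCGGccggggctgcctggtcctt
Cyyr1: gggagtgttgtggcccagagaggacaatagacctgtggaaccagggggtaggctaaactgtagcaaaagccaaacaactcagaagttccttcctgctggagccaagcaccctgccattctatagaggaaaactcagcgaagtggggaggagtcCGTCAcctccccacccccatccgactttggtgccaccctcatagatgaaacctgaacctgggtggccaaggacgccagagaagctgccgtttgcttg
The motifs were the TATA box TATAAA, the GC box GGGCGG, the CCAAT box of that sequence, the half-site of the cAMP response element, TGACG, and the E-box written CACGTG, each searched on both strands, with no overlap between matches. The Adamts1 window held the TATA box 32 to 27 bases before the start, 3 GC boxes and the half-site. The Cyyr1 window held only the half-site, on the other strand as CGTCA, 97 to 93 bases before the start. The window of Eva1c, not printed here, lies inside the GENCODE span of its gene as well. It also held only CGTCA, 100 to 96 bases before the RefSeq start. The half-site was therefore not particular to the 2 windows shown. Over 32851 promoter windows of this length, 12.4% held the TATA box, 32.7% a GC box, 33.8% CCAAT, 17.8% the half-site and 6.02% the E-box. GC content was 65.6% in Adamts1, 64.4% in Eva1c and 55.6% in Cyyr1, against a median of 52.4% over all windows. A match describes these letters and shows no bound factor.

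Adamts5 (ENSMUSG00000022894.6, chromosome 16, 85856173 to 85901828, minus strand), which encodes an aggrecan-cutting protease, lies 53060 bp from Adamts1. It stood at 2.29, 2.43, 1.99 and 2.35 CPM in wild-type and at 2.71, 3.90, 2.93 and 2.32 CPM in Dp16. In 5xFAD it stood at 1.71, 2.51, 1.70 and 2.41 CPM, and in 5xFAD-Dp16 at 2.56, 2.01, 1.13 and 2.73 CPM. Each Dp16 library lay above the wild-type mean, yet Dp16 replicate 4 fell within the wild-type range, and 5xFAD-Dp16 replicate 3 was the lowest of the 16. The log2 fold change was 0.37 ± 0.29 between Dp16 and wild-type, −0.01 ± 0.29 between 5xFAD-Dp16 and 5xFAD, and 0.18 ± 0.20 averaged (95% confidence interval −0.25 to 0.62, edgeR adjusted p = 1.00). The transgenes gave −0.30 ± 0.20 averaged (edgeR adjusted p = 0.710), and 1 of the 8 libraries with them lay above the mean of those without.

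The other ADAMTS genes, the substrates and the inhibitors gave no call for the duplication. None of the 19 tested other ADAMTS and ADAMTS-like genes, of the 19 substrates, link proteins and partners of the perineuronal matrix, or of the 15 inhibitors, clearance receptors and further metalloproteases was called in any of its 3 comparisons. Median log2 fold changes in the averaged comparison were −0.10, −0.23 and −0.14 for these lists, against −0.02 over all genes tested. Markers of glia and vessels lay low in the same comparison, with none called: 0 of 10 astrocyte (median −0.17), 0 of 7 oligodendrocyte precursor (−0.27), 0 of 10 microglial (−0.33), 1 of 11 mural (−0.28) and 2 of 14 endothelial markers (−0.20) lay above 0, and their part in the medians of these lists was not tested. Vcan and Cspg4 are both in the list with the substrates and among the precursor markers, and Cspg4 is also among the mural ones. Cspg5, a brain chondroitin sulfate proteoglycan, and Ptprz1, a phosphatase that carries such chains, had the smallest p-values among the substrates, at −0.23 ± 0.09 and −0.37 ± 0.17. Adamts4, the aggrecanase of oligodendrocyte lineage cells, stood at −0.41 ± 0.25.

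With the transgenes, A2m was called in the list of 15 with the inhibitors in the averaged comparison, and no other gene of the 3 lists was. A2m encodes alpha-2-macroglobulin, a secreted trap for proteases, and averaged 1.16 ± 0.625 CPM in wild-type and 1.70 ± 1.29 CPM in Dp16 mice (SD, n = 4), against 4.33 ± 2.70 CPM in 5xFAD and 3.79 ± 2.36 CPM in 5xFAD-Dp16 mice. Its averaged 5xFAD log2 fold change was 1.42 ± 0.32 (edgeR adjusted p = 0.0239). The A2m call was lost without the sex term (edgeR adjusted p = 0.0854) and without wild-type replicate 1 or 4, 5xFAD-Dp16 replicate 2 or 4, or 5xFAD replicate 1, 3 or 4, with log2 fold changes of 1.23 to 1.58 over all libraries left out in turn. In the same comparison 10 of 10 microglial markers were called (median 1.18), 10 of 10 astrocyte markers lay above 0 with 2 called, and 13 of 14 endothelial markers lay above 0 with none called, and their part in the A2m difference was not tested. Of the ADAMTS genes, Adamts6 had the smallest p-value there (0.57 ± 0.22, edgeR adjusted p = 0.363).

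Eva1c (ENSMUSG00000039903.17, chromosome 16, 90826719 to 90905109, plus strand) separated Dp16 from wild-type mice but not the 2 groups with the transgenes. It stood at 2.70, 0.982, 2.84 and 3.38 CPM in wild-type and at 4.99, 5.01, 4.52 and 3.87 CPM in Dp16. In 5xFAD it stood at 4.24, 1.82, 3.84 and 1.93 CPM, and in 5xFAD-Dp16 at 2.56, 3.85, 3.70 and 4.72 CPM. All 4 Dp16 values lay above all 4 wild-type values, as 0.980% of genes tested did, while 5xFAD replicate 1 lay above 3 of the 4 5xFAD-Dp16 libraries. The log2 fold change was 0.90 ± 0.34 between Dp16 and wild-type (unadjusted p = 0.0178 in edgeR's test, adjusted p = 1.00), 0.39 ± 0.34 between 5xFAD-Dp16 and 5xFAD, and 0.64 ± 0.24 averaged (edgeR adjusted p = 0.963). The interaction of −0.52 had a 95% confidence interval of −1.53 to 0.50 and was not called. Eva1c had 19 to 114 counts per library.

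Of 15 tested Slit ligands, Robo receptors and Eva1 paralogs, none was called in any comparison of either genotype. Their median log2 fold change was −0.07 in the averaged comparison of the duplication, with 6 above 0. The paralogs, which lie outside the segment, had 0.40 ± 0.18 for Eva1b and −0.31 ± 0.15 for Eva1a, each with an edgeR adjusted p of 1.00.

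Cyyr1 (ENSMUSG00000041134.15, chromosome 16, 85421533 to 85553397, minus strand) had the widest spread within groups, with a median coefficient of variation of 46.9%. It stood at 4.58, 1.81, 1.27 and 7.47 CPM in wild-type and at 4.73, 5.40, 2.68 and 2.55 CPM in Dp16. In 5xFAD it stood at 3.91, 0.986, 5.33 and 2.81 CPM, and in 5xFAD-Dp16 at 4.22, 3.62, 5.09 and 7.16 CPM. The wild-type mice alone covered nearly the whole range of the 16 libraries. The log2 fold change was −0.02 ± 0.52 between Dp16 and wild-type, 0.66 ± 0.53 between 5xFAD-Dp16 and 5xFAD and 0.32 ± 0.37 averaged, each with an edgeR adjusted p of 1.00. The difference between 5xFAD-Dp16 and 5xFAD was 0.33 without 5xFAD replicate 2 and 0.95 without 5xFAD replicate 3. Without wild-type replicate 3 the difference between Dp16 and wild-type was −0.36, and without wild-type replicate 4 it was 0.75. Its exons share 165 bp with the pseudogene Gm2541, which had 0 to 14 counts against 20 to 159 for Cyyr1.

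Across the 6 genes, the averaged effect of the duplication was above 0 for all 6, as it was for 46.3% of all genes tested and for 93 of the 103 other tested genes of the segment. The median of the 6 was 0.42, against 0.57 for those 103 genes (interquartile range 0.39 to 0.67) and −0.02 for all genes. Ranked by log2 fold change among the 109 tested segment genes, Jam2 was 25th, Eva1c 33rd and Cxadr 68th, and Cyyr1, Adamts1 and Adamts5 were 86th, 91st and 94th. This order was loose: with a library left out in turn the log2 fold change of Cyyr1 ran from 0.16 (without wild-type replicate 3) to 0.72 (without wild-type replicate 4), that of Adamts1 from 0.018 to 0.42 with the same libraries out, and that of Adamts5 from 0.12 (without 5xFAD replicate 3) to 0.30 (without 5xFAD-Dp16 replicate 3). In the separate comparisons 5 of 6 lay above 0 in each, as did 42.9% of all genes without the transgenes and 50.9% with them. An unadjusted p under 0.05 was reached by 3 of 6 between Dp16 and wild-type (2.20% of all genes), 2 of 6 between 5xFAD-Dp16 and 5xFAD (3.59%) and 3 of 6 in the average (4.29%). Of the 103 other segment genes, 39, 49 and 66 reached it in these comparisons. The 95% confidence interval covered the log2 ratio of 3 to 2 copies, 0.58, for all 6 genes in each of the 3 comparisons. It covered 0 for 3 of 6 genes between Dp16 and wild-type, for 4 of 6 between 5xFAD-Dp16 and 5xFAD, and for 3 of 6 in the average. The averaged intervals of Adamts1, Adamts5 and Cyyr1 held both values.

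**Figure D2:**
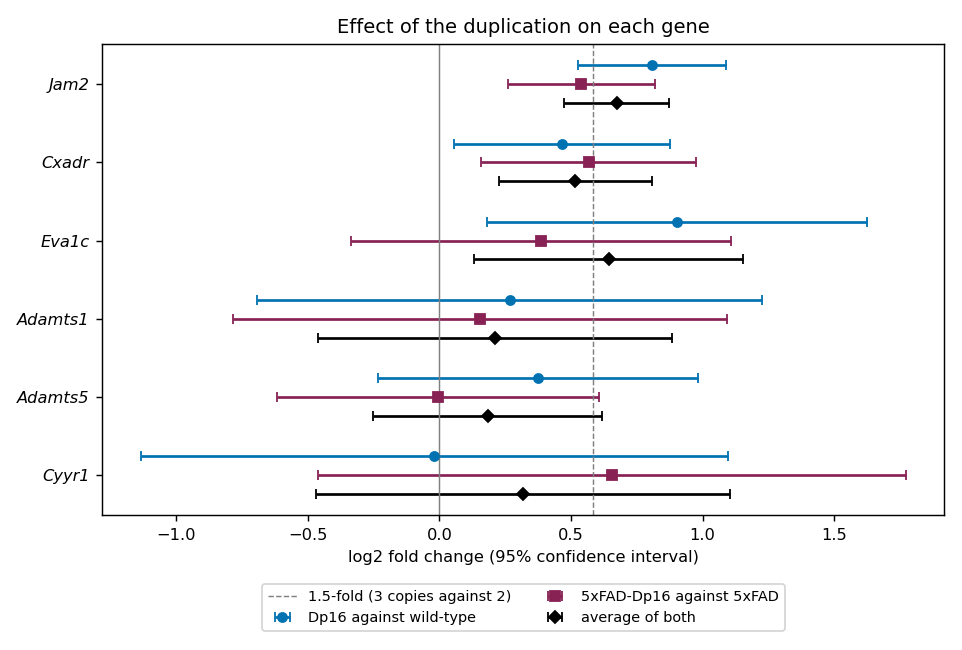
Log2 fold change of each gene for the duplication without the transgenes (circles), with them (squares) and averaged (diamonds), with 95% confidence intervals. The dashed line marks 1.5-fold and is crossed by every interval, and the averaged intervals of Jam2, Cxadr and Eva1c lie above 0.

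**Figure D3:**
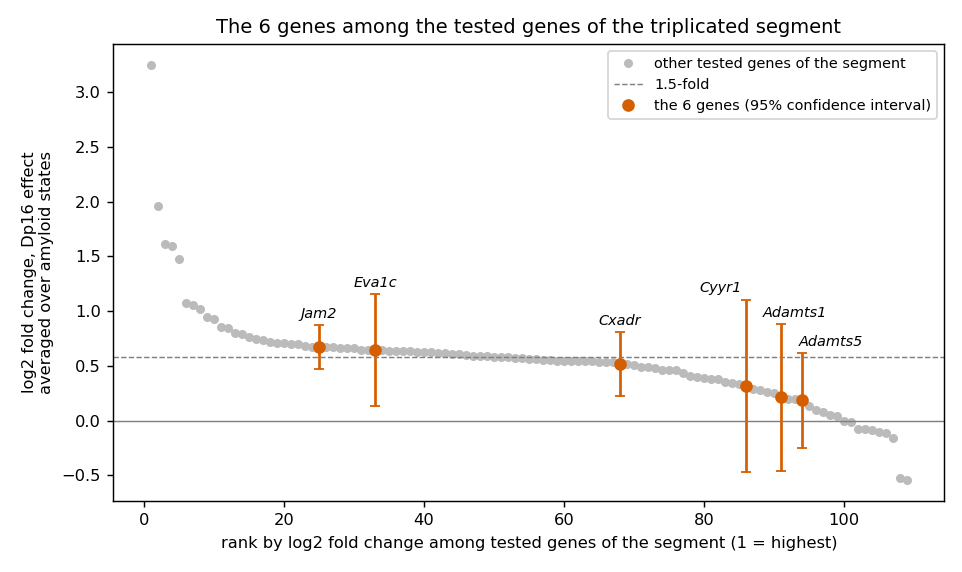
Averaged log2 fold change of the duplication for the 109 tested genes of the segment, ordered from highest to lowest, with the 6 genes in colour and their 95% confidence intervals. Jam2 and Eva1c sit at ranks 25 and 33, and Cyyr1, Adamts1 and Adamts5 at ranks 86 to 94, below the dashed line at 1.5-fold.

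None of the nearest tested genes beside the 6 was called for the duplication. App, on the left of Cyyr1, had an averaged log2 fold change of 0.65 ± 0.17, Mrpl39 and Atp5j, on either side of Jam2, had 0.62 ± 0.14 and 0.58 ± 0.22, and N6amt1, on the right of Adamts5, had 0.66 ± 0.21. On the sides of Cxadr, the long noncoding Mir99ahg had 0.10 ± 0.32 and D16Ertd472e 0.38 ± 0.11. Beside Eva1c, Urb1 had 0.26 ± 0.21 and Cfap298 0.63 ± 0.14. App and N6amt1, which flank the block of Cyyr1, Adamts1 and Adamts5, had higher estimates than those 3 genes, and the differences were not tested.

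The 5xFAD transgenes changed none of the 6 genes past the threshold, whether without the duplication (1.52% of all genes called), with it (0.387%) or averaged. No gene of the 6 had separate groups, as 3.67%, 2.21% and 0.826% of genes did in the upward direction in these comparisons. An unadjusted p under 0.05 was reached by Jam2 in the first (7.10% of all genes), by none in the second (3.92%) and by Adamts1 in the average. Of the averaged log2 fold changes, 3 lay above 0, as did 45.8% of all genes, and 3 below, from −0.30 for Adamts5 to 0.70 for Adamts1, and their median of 0.00 stood beside −0.02 for all genes. Jam2 had 0.30 ± 0.13 between 5xFAD and wild-type (unadjusted p = 0.0368 in edgeR's test, adjusted p = 0.626) and 0.03 ± 0.13 between 5xFAD-Dp16 and Dp16. No gene of the 6 was called for the interaction of both genotypes. Across all genes the edgeR test called 0 there, with 239 (1.36%) at an unadjusted p under 0.05, and DESeq2 called 1. The 2 comparisons with wild-type share the wild-type libraries, and those with 5xFAD-Dp16 share that group.

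**Figure D4:**
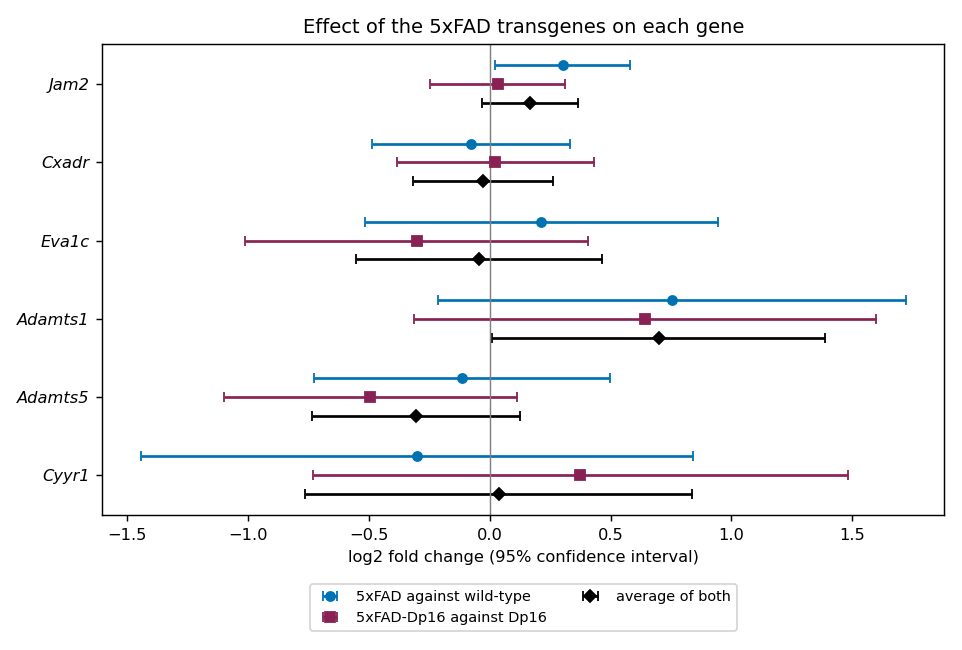
Log2 fold change of each gene for the 5xFAD transgenes without the duplication (circles), with it (squares) and averaged (diamonds), with 95% confidence intervals and a line at 0. The averaged interval of Adamts1, 0.01 to 1.39, is the only averaged one of the 6 that lies above 0.

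Adamts1 also differed by sex among the mice with the transgenes, a pattern seen after its values were examined. The 4 females there stood at 13.004 to 18.7 CPM and the 4 males at 6.22 to 8.33 CPM, so the sexes did not overlap, as for 3.18% of all genes tested in this direction. Without the transgenes, females stood at 1.45 to 10.2 CPM and males at 4.86 to 8.83 CPM and overlapped. The difference of the 5xFAD effect between females and males, added for that reason, was 1.27 ± 0.57 on the log2 scale (unadjusted p = 0.0455 in edgeR's test, adjusted p = 0.618). It was 1.96 with wild-type replicate 1 left out, 0.91 with wild-type replicate 3 left out and 0.69 with the slope on gene length in the fit. Cell type markers moved with it in the same contrast: 13 of 14 endothelial markers lay above 0 (median 0.66), 8 of 11 mural markers (0.67), 7 of 7 markers of oligodendrocyte precursors (0.67) and 9 of 10 microglial markers (0.44), against a median of −0.01 over all genes, and their part in the Adamts1 difference was not tested. The mural and precursor lists share Cspg4, and their medians in this contrast were the same value, so they are not separate observations. No gene passed the threshold for that difference in the edgeR test, in which 4.97% of genes had an unadjusted p under 0.05; with DESeq2, 2 did. For the difference of the Dp16 effect between females and males, Adamts5 had the smallest p of the 6, with 0.93 ± 0.35 (unadjusted p = 0.0206 in edgeR's test, adjusted p = 1.00), in a comparison where 1.41% of genes had an unadjusted p under 0.05. Over all genotypes, females had the higher fitted level for all 6 genes, as for 53.4% of genes tested, from 0.10 ± 0.09 for Jam2 to 0.53 ± 0.32 for Adamts1. None of the 6 was called there (0.0456% of all genes), and none had an unadjusted p under 0.05 (2.93%).

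Adamts1 and Cyyr1 varied together from library to library. Over the 16 libraries their log2 CPM had Pearson r = 0.725 (permutation p = 0.00129, adjusted p = 0.00741) and Spearman rho = 0.797 (permutation p = 0.00039, adjusted p = 0.0081). The value was 0.580 without the 2 libraries farthest from the median of Adamts1, and 0.824 after group means were taken out. Of the other pairs without Jam2, 3 passed the adjustment on Pearson's r and not on Spearman's rho. These were Cxadr with Cyyr1 (r = 0.628, permutation p = 0.00863, adjusted p = 0.0291; rho = 0.535, adjusted p = 0.119), Cyyr1 with Eva1c (r = 0.596, permutation p = 0.0159, adjusted p = 0.0428; rho = 0.482, adjusted p = 0.154) and Cxadr with Eva1c (r = 0.582, permutation p = 0.0154, adjusted p = 0.0428; rho = 0.512, adjusted p = 0.134), with r of 0.469, 0.583 and 0.460 without the 2 farthest libraries. After group means were taken out, r was 0.598, 0.624 and 0.330 for these 3 pairs. Cxadr with Adamts1 did not pass (r = 0.528, permutation p = 0.031, adjusted p = 0.0761), and had r = 0.711 after group means were taken out. In all, 27 relations were computed, over the 15 pairs of the 6 genes and each gene with the summed endothelial markers and with the length slope, with p adjusted over the 27 (100000 resamples each). The resampling ignored the groups, so group differences that both genes share also enter these p-values. Adamts1 and Adamts5, the closest pair on the chromosome, had r = 0.049 (permutation p = 0.844, adjusted p = 0.949) and rho = 0.085 (permutation p = 0.752, adjusted p = 0.825), and r = −0.177 without the 2 farthest libraries. Jam2 fell into separate clusters with and without the duplication, so no value over all libraries is given for it.

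The same 2 genes moved with the sum of 14 endothelial markers and with the length slope. Relations with the genes were computed for the endothelial sum alone and for none of the other marker sums. Whether the link is particular to vessels was therefore not tested. The endothelial sum ran from 245 to 500 CPM in wild-type, 268 to 506 in Dp16, 348 to 556 in 5xFAD and 344 to 478 in 5xFAD-Dp16, with wild-type replicate 3 the lowest library and 5xFAD replicate 3 the highest. Adamts1 had r = 0.787 with it (permutation p = 0.00017, adjusted p = 0.00459; rho = 0.782, permutation p = 0.0006, adjusted p = 0.0081), and r = 0.676 without the 2 farthest libraries. Cyyr1 had r = 0.712 (permutation p = 0.00192, adjusted p = 0.00741; rho = 0.732, permutation p = 0.0021, adjusted p = 0.0165), and r = 0.639 without the 2 farthest. With the length slope, r was 0.750 for Adamts1 (permutation p = 0.00149, adjusted p = 0.00741; rho = 0.644, permutation p = 0.00834, adjusted p = 0.0407) and 0.728 for Cyyr1 (permutation p = 0.00132, adjusted p = 0.00741; rho = 0.718, permutation p = 0.00245, adjusted p = 0.0165). With the 2 libraries of most extreme slope left out these were 0.613 and 0.674. With the endothelial sum, r was −0.246 for Adamts5 (permutation p = 0.363, adjusted p = 0.598; rho = −0.121), 0.226 for Cxadr (permutation p = 0.399, adjusted p = 0.598; rho = 0.141) and 0.205 for Eva1c (permutation p = 0.455, adjusted p = 0.637; rho = 0.141). Wild-type replicate 3 was also lowest for the summed oligodendrocyte precursor markers (47.9 CPM) and activity-induced immediate early genes (409 CPM). The same library was the highest of all for the summed fibroblast and meninges markers (1112 CPM). The other marker lists had their lowest sum in other libraries. Libraries share their depth and composition between all these values. What the endothelial sum or the slope contributes to the differences between groups was not tested.

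**Figure D5:**
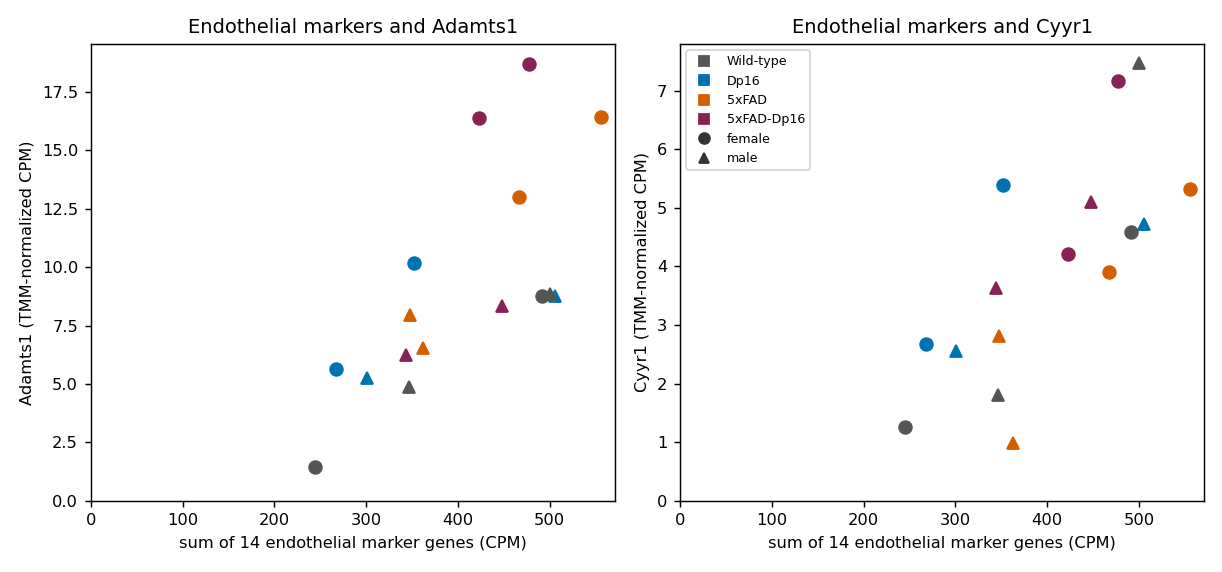
Adamts1 (left) and Cyyr1 (right) in TMM-normalized CPM against the summed CPM of 14 endothelial marker genes, 1 point per library, coloured by group, with circles for females and triangles for males. Wild-type replicate 3 sits lowest on the horizontal axis at 245 CPM with 1.45 CPM of Adamts1 and 1.27 CPM of Cyyr1, and libraries of every group spread along the same direction.

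The genes whose log2 CPM followed each of the other 5 genes most closely over the 16 libraries, among 13496 genes whose log2 CPM averaged 1 or more, are given as a description with no test, since they were picked for that likeness. Outside the segment Adamts1 was followed by Mfap3l (r = 0.953), Pgghg (0.924) and Slc12a9 (0.923), and inside it by Erg (0.885), which encodes an endothelial transcription factor. For Cyyr1 they were Cobll1 (0.932), Ecm1 (0.910) and Trpm2 (0.884), and inside the segment Itsn1 (0.865). Cxadr was nearest to Pcdhb19 (0.829), 1810030O07Rik (0.783) and Kif9 (0.765), with Il10rb inside (0.783), and Eva1c to Tango6 (0.835), Pcdhb9 (0.755) and Hhatl (0.739), with C2cd2 inside (0.716). Adamts5 had the weakest likeness, with Ehbp1l1 (0.710), Cfap61 (0.686) and Mettl22 (0.679) outside and 4932438H23Rik (0.445) inside.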

How the data were processed

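Polyadenylated RNA of mouse brain cortex was made into strand-specific libraries and sequenced as paired ends, per the labels' protocols. Tools listed, per the submitters' processing notes, were HTSeq 0.6.1, HISAT2 2.1.0, SAMtools 1.5, FastQC 0.11.5 and bcl2fastq, on GRCm38, without settings. The authors deposited raw read counts per gene, not normalized, and RPKM values, which equal the deposited counts divided by gene length and library total.

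Counts were tested with edgeR 4.0.16 (R 4.3.3): TMM, filterByExpr (minimum count 10), robust quasi-likelihood fits over all 16 libraries with sex as covariate, and Benjamini-Hochberg adjustment over 17555 genes. The 2 sex-difference contrasts and the alternatives for F11r and A2m were added after the values were seen. The fit was also run on simulated counts, drawn independently for each gene and library. These held no slope on gene length, so that run cannot show how the slope affects the calls. Genes were placed with GENCODE M21, and promoters came from RefSeq, with 3 of the 6 genes matched. Of 221 list symbols, 220 were found. The 6 genes and all lists were chosen with earlier results of these data known. Named list genes are those called, otherwise the 2 of smallest p. Alternatives were DESeq2 1.42.0, RLE factors, no filter, no sex term, replicate block, only the groups compared, the per-library slope of log2 CPM deviation on log2 gene length as covariate, no libraries of lowest slope, and each library left out.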

Additional observations from a re-analysis of the deposited data

Results flagged for a closer look

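Among the 24 sets of 4 libraries formed by 6 genes and 4 groups, 1 library lay far from its group. Cxadr stood at 14.6 CPM in 5xFAD replicate 3, where the other 3 libraries of the group stood at 9.75 to 10.5 CPM, and the gap to the nearest was 0.853 of the group's range (critical value 0.829). Chance flags about 1 in 20 such groups. Without that library the log2 fold change of Cxadr between 5xFAD-Dp16 and 5xFAD was 0.69, against 0.57 with it. The same library had the highest level of Jam2 (90.2 CPM), Adamts1 (16.4 CPM) and Cyyr1 (5.33 CPM) in its group and the highest endothelial sum of all 16 libraries (556 CPM).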

How the results depend on the processing

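Of 354 log2 fold changes of the 6 genes under alternatives other than leaving out a library, 336 kept direction and call, 8 gained a call and 10 changed sign; of 768 with a library left out, 717 kept both, 1 lost its call and 50 changed sign. The cause of these changes was not tested.

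The number of the 6 genes called between Dp16 and wild-type, 0, was 1 (Jam2) with DESeq2 and 1 with the length slope as covariate, and between 5xFAD-Dp16 and 5xFAD it was likewise 1 with each; over all genes these fits called 17 and 44, and 27 and 122, against 1 and 1. For the averaged Dp16 effect it was 2 (Jam2 and Cxadr) with the slope, and ran from 0 (without 5xFAD-Dp16 replicate 3) to 1 with a library left out. Adamts1 made it 1 between 5xFAD and wild-type with the slope (0.94 ± 0.24, edgeR adjusted p = 0.0207), and 1 for the averaged 5xFAD effect with the slope or with no low-count filter. Over all genes, the averaged Dp16 effect gave 17 calls, 64 with DESeq2, 180 with the slope, 111 with no filter, and from 4 (without 5xFAD-Dp16 replicate 3) to 50 (without wild-type replicate 3) with a library left out; the averaged 5xFAD effect gave 383, 613, 1052 and 643. Interaction calls rose from 0 to 25 with no filter.

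Signs changed as follows. Cyyr1 between Dp16 and wild-type (−0.02) was 0.015 without the sex term, 0.18 with the replicate block, 0.38 with the slope, 0.048 with only the groups compared and 0.032 without the 3 libraries of lowest slope. Cyyr1 between 5xFAD-Dp16 and Dp16 was −0.022 without those 3 libraries, and its averaged 5xFAD effect was −0.34 without them and −0.056 with the slope. Adamts5 between 5xFAD-Dp16 and 5xFAD was 0.017 without the sex term, and Cxadr between 5xFAD-Dp16 and Dp16 was −0.036 with the slope.

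With a library left out, Dp16 against wild-type ran from −0.11 to 0.69 for Adamts1 and from −0.36 to 0.75 for Cyyr1. 5xFAD-Dp16 against 5xFAD ran from −0.034 to 0.33 for Adamts1 and from −0.14 to 0.22 for Adamts5. 5xFAD against wild-type ran from −0.21 to 0.094 for Cxadr, −0.22 to 0.013 for Adamts5 and −0.67 to 0.41 for Cyyr1. 5xFAD-Dp16 against Dp16 ran from −0.060 to 0.11 for Cxadr and −0.012 to 0.073 for Jam2. The averaged 5xFAD effect ran from −0.095 to 0.053 for Cxadr, −0.15 to 0.12 for Eva1c and −0.15 to 0.38 for Cyyr1. The interaction ran from −0.082 to 0.23 for Cxadr, −0.55 to 0.26 for Adamts1 and −0.060 to 1.04 for Cyyr1.

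Same-numbered libraries deviated together in some pairs and not in others (r from −0.354 to 0.514, over 0.1 in 9 of 24 pairs). Of 16 libraries, 7 correlated best with their own number, and no chance level was computed for this. The labels name no pairs, so the numbers were not taken as pairs. With the replicate block, 1 of the 6 genes was called for the averaged Dp16 effect and 0 in the other comparisons, and all-gene calls went from 17 to 14 for that effect and from 1 to 0 between Dp16 and wild-type. Adamts5, Eva1c and Cyyr1 had 19 to 159 counts per library.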
